A study of Mus musculus with 7 samples.

Results

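The 10 genes described here mark cells of the vessel wall and the connective tissue around it, and they were followed in neural stem cell (NSC) cultures with and without the Mediator subunit Med23. They are Pdgfrb, Rgs5 and Abcc9 of pericytes, Acta2, Tagln, Myh11 and Des of contractile mural cells, and Dcn, Lum and Foxc1 of fibroblasts and the meninges. They were taken by gene symbol from a table of 24346 genes, which lists each of the 10. RNA came from primary neurospheres, floating clusters grown from dissociated hippocampus with FGF and EGF, and each library was made from the culture of a single mouse. The control group holds 4 mice, named WT_215, WT_116, WT_213 and WT_220, and the Med23 CKO group holds 3 mice, named KO_117, KO_214 and KO_218. Med23 CKO mice are Nestin-CreER:Med23 flox/flox, so that tamoxifen activates a Cre recombinase made under the Nestin promoter, which removes floxed Med23 exons from the cells where it is active. Controls are littermates labelled wild type, described in the study's methods as Med23 flox/+ or Med23 flox/flox without the Cre transgene, and they received tamoxifen too. The labels give the strain as C57/BL6, the age as 2 months and tamoxifen as 200 mg/kg by gavage on each of 5 days, with a recovery of 3 to 4 weeks for every library. The methods, in contrast, place the treatment for cultures at an earlier age. Recombination is limited to cells in which the Nestin-driven Cre was active, and the RNA of a whole culture does not separate these from the other cells in it.

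Mural cells wrap the endothelial tube of a vessel. Pericytes lie on capillaries and are held there by PDGF-B, which endothelial cells release and the receptor PDGFRβ on the pericyte binds, while smooth muscle cells surround arterioles and contract through smooth muscle actin and myosin. Fibroblasts of the brain sit in the meninges and along larger vessels and secrete collagens and the small proteoglycans that bind them. Neurosphere cultures are grown to obtain neural stem cells and their progeny, not mural cells or fibroblasts.

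The values are FPKM, fragments scaled to transcript length and to the mapped fragments of the library, so levels can be compared between genes per length. The number of fragments behind a value is unknown, and the number of libraries limits the precision. On GRCm38, which is mm10, RefSeq places Pdgfrb on chromosome 18 (61045127 to 61085067), Rgs5 on chromosome 1 (169655501 to 169695813), Abcc9 on chromosome 6 (142587862 to 142702766) and Tagln on chromosome 9 (45929628 to 45936058). Myh11 lies on chromosome 16 (14194527 to 14292188), Des on chromosome 1 (75360292 to 75368579), Acta2 on chromosome 19 (34240336 to 34255585) and Foxc1 on chromosome 13 (31806646 to 31810635). Dcn (97479500 to 97518163) and Lum (97565501 to 97572703) lie close together on chromosome 10. Stretches of 50 bases shared with transcripts of other genes made up at most 0.698% of the longest transcript, in Abcc9. Exons of Tagln overlap Pcsk7 and Gm48529, those of Des overlap Gm15179 and those of Abcc9 overlap 5330439B14Rik on the opposite strand, and the kit named in the methods does not mark strand, so reads there cannot be told apart. Med23 itself was lower in each of the 3 Med23 CKO cultures than in any of the 4 controls (log2 fold change -0.26, standard error 0.18, adjusted p = 0.9999 from limma), over a gene model that includes exons outside the floxed ones.

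All 10 genes had their highest value in the same library, KO_214. In that culture their summed level was 478 FPKM, 3.76 times that of the next library (WT_213, 127 FPKM), and the lowest sums were 16.7 FPKM in WT_220 and 11.5 FPKM in KO_117. The other cultures lay between, with 84.7 FPKM in WT_215, 68.9 FPKM in WT_116 and 75.3 FPKM in KO_218. The sum was 0.0893% of all FPKM in KO_214 and 0.00212% in KO_117, so these genes were a small part of every transcriptome. The lowest value of the 7 was in WT_220 for 5 genes and in KO_117 for the other 5, and these libraries together held the 2 lowest values of 7 of the 10 genes. Each group thus had a culture at the low end, and the Med23 CKO group also held the high end. Among the 14151 genes tested, which are those with a mean of at least 0.5 FPKM over the 7 libraries, KO_214 was the highest library for 25.4%. In RNA from a whole culture, fewer cells of a type and less RNA per cell cannot be told apart.

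**Figure D1:**
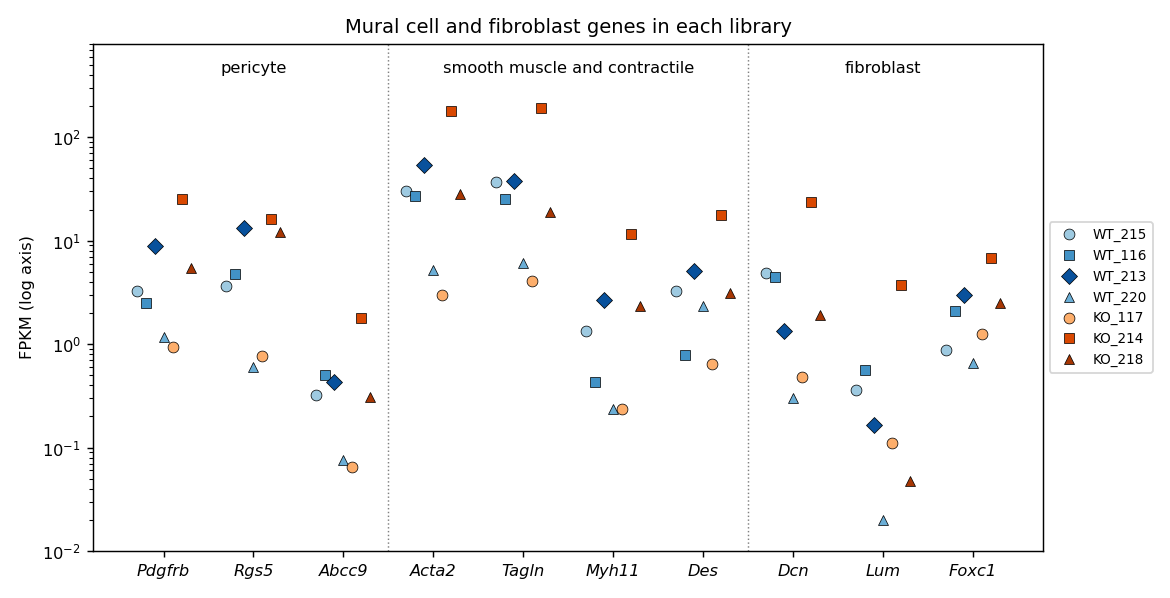
FPKM of the 10 genes on a log axis, 1 point per library, for the 4 control and the 3 Med23 CKO libraries. KO_214 is the highest point for every gene, and WT_220 or KO_117 is the lowest.

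Pericyte genes had a Med23 CKO culture at or near each end of their range. Pdgfrb, the PDGF-B receptor, had 3.26, 2.47, 8.97 and 1.18 FPKM in the control cultures (in the order WT_215, WT_116, WT_213, WT_220), against 0.948, 25.2 and 5.48 FPKM in the Med23 CKO cultures (KO_117, KO_214, KO_218). The lowest and the highest culture were both Med23 CKO, and the control values fell between them. Rgs5, which speeds the shut-off of G protein signaling and is a standard pericyte marker, had 3.64, 4.75, 13.1 and 0.601 FPKM in the control cultures, against 0.760, 16.4 and 12.2 FPKM in the Med23 CKO cultures. WT_213 and KO_218 were almost as high as KO_214, which stood 1.24 times above the next library, the smallest such step of the 10 genes. Abcc9, which encodes the sulfonylurea receptor subunit of a potassium channel, had 0.321, 0.499, 0.430 and 0.0751 FPKM in the control cultures, against 0.0651, 1.79 and 0.309 FPKM in the Med23 CKO cultures. Its mean of 0.498 FPKM over the 7 libraries lay just under the minimum of 0.5 FPKM, so it was not tested and is given by its values, which overlapped between the groups.

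Contractile genes included the most abundant of the 10. Acta2, smooth muscle α-actin, had 30.1, 27.3, 54.3 and 5.17 FPKM in the control cultures (in the order WT_215, WT_116, WT_213, WT_220), against 3.01, 178 and 28.3 FPKM in the Med23 CKO cultures (KO_117, KO_214, KO_218), a 59.3-fold range inside the Med23 CKO group. Tagln, the actin-binding protein transgelin, had 36.6, 25.5, 37.9 and 6.14 FPKM in the control cultures, against 4.04, 193 and 19.1 FPKM in the Med23 CKO cultures. For both, KO_214 exceeded all controls, KO_117 was below all of them, and KO_218 lay among the controls. Myh11, the smooth muscle myosin heavy chain, had 1.33, 0.428, 2.68 and 0.234 FPKM in the control cultures, against 0.236, 11.5 and 2.34 FPKM in the Med23 CKO cultures. WT_220 and KO_117 were level at its low end. Des, the muscle intermediate filament desmin that pericytes also make, had 3.25, 0.789, 5.12 and 2.34 FPKM in the control cultures, against 0.644, 17.6 and 3.10 FPKM in the Med23 CKO cultures. In Des, unlike the other contractile genes, WT_116 was the lowest control.

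Smooth muscle genes are known for CArG boxes, 10-base sites that bind serum response factor (SRF), and the sites nearest to this pattern in the Acta2 promoter are shown because Acta2 is the most abundant of the 10 genes. RefSeq promoter windows on GRCm38.p6, from 250 bases before to 50 after a transcript start, matched 5 of the 10 genes (Abcc9, Acta2, Des, Foxc1 and Rgs5). A full CArG box, whose pattern is the same on both strands, was in 0 of these 5 windows and in 1.63% of all 32851 windows. With up to 1 mismatch, a search added after the first found no match, Acta2 held 2 matches and the other 4 windows none, and 21.1% of all windows held at least 1. The matches in Acta2 begin 84 and 34 bases before the start and are printed on the reverse strand, 5′ to 3′, at chr19:34255438-34255467 and chr19:34255388-34255417, with the match in capitals and 10 bases on each side. GENCODE M21 places both inside an annotated exon of Acta2 (34255290 to 34255590). The RefSeq span of Acta2 given above (34240336 to 34255585) also holds both, so the start used for this window lies inside that span and is not its end.
Acta2, 84 bases before the start: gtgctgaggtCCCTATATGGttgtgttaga
Acta2, 34 bases before the start: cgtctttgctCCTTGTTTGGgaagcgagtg

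Fibroblast genes were also highest in KO_214, but Dcn and Lum were ordered differently below it. Dcn, the collagen-binding proteoglycan decorin, had 4.88, 4.48, 1.34 and 0.299 FPKM in the control cultures (in the order WT_215, WT_116, WT_213, WT_220), against 0.479, 23.5 and 1.90 FPKM in the Med23 CKO cultures (KO_117, KO_214, KO_218). Lum, the related proteoglycan lumican, had 0.362, 0.564, 0.167 and 0.0197 FPKM in the control cultures, against 0.110, 3.71 and 0.0476 FPKM in the Med23 CKO cultures. Both had WT_215 and WT_116, not WT_213, next after KO_214, and Lum in KO_214 was 6.57 times the next library, the largest such step of the 10 genes. Foxc1, a forkhead transcription factor needed for the meninges, had 0.885, 2.08, 2.97 and 0.663 FPKM in the control cultures, against 1.25, 6.81 and 2.52 FPKM in the Med23 CKO cultures. Its 5.44-fold range in the Med23 CKO group was the narrowest of the 10, and its second highest library was WT_213, as for 7 of the 10 genes.

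Ordered by their mean over the 7 libraries, the levels ran from Acta2 (46.7 FPKM) and Tagln (46.1) through Rgs5 (7.36), Pdgfrb (6.79), Dcn (5.28), Des (4.69), Myh11 (2.68) and Foxc1 (2.45) to Lum (0.711) and Abcc9 (0.498). Acta2 stood at percentile 91.9 of mean FPKM over all 24346 genes and Abcc9 at percentile 41.9. Neighbours in this order were compared within each library on the log2 scale by an exact sign-flip permutation test of the 7 paired differences, two-sided, with Benjamini-Hochberg adjustment over the 9 pairs. Tagln was above Rgs5, Des above Myh11, and Foxc1 above Lum in 7 of 7 libraries (exact permutation p = 0.0156 each, the smallest this test can give, adjusted p = 0.0469). For the 6 other pairs no difference beyond the spread was found, with adjusted exact p between 0.316 and 0.938. Acta2 was above Tagln in 3 of 7 libraries. The order and its pairs were taken from the same 7 libraries, so these p-values give it no independent support.

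The 10 genes did not keep fixed proportions to each other. The ratio of Acta2 to Tagln was the steadiest of the 8 ratios computed, between 0.743 in KO_117 and 1.48 in KO_218. The ratio of Dcn to Pdgfrb, listed here under fibroblasts and pericytes, is not a measure of the 2 cell types. It was 1.499 in WT_215, 1.81 in WT_116, 0.150 in WT_213, 0.254 in WT_220, 0.505 in KO_117, 0.935 in KO_214 and 0.347 in KO_218. It spanned 12.1-fold, and its 2 highest and 2 lowest values were all in control cultures. The ratio of Rgs5 to Pdgfrb was 2.23 in KO_218, 1.92 in WT_116, 1.47 in WT_213 and 1.12 in WT_215, and below 1 in the other 3 libraries (0.649 in KO_214, 0.801 in KO_117 and 0.511 in WT_220). Acta2 was 3.17 to 11.1 times as abundant as Pdgfrb, with KO_214 inside that range at 7.08.

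**Figure D2:**
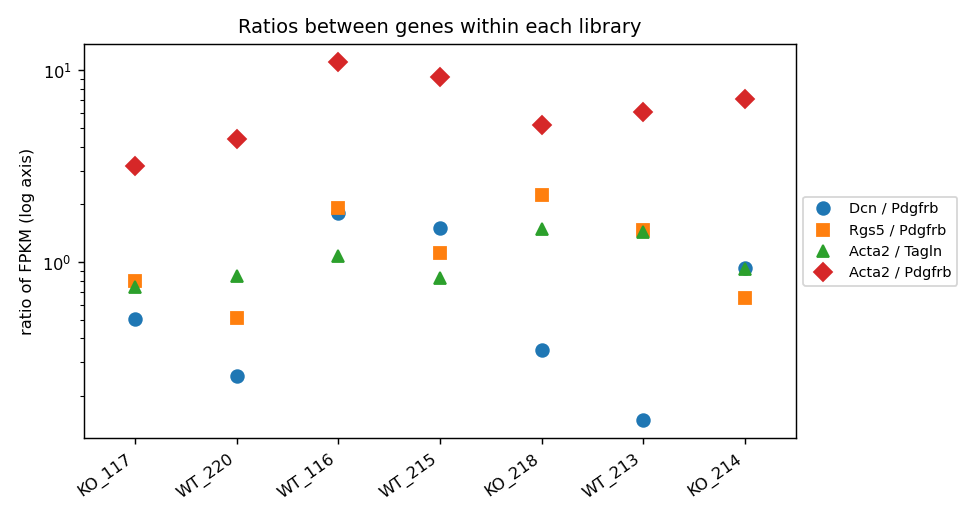
Ratios of FPKM between pairs of genes in each of the 7 libraries on a log axis, with libraries ordered from the lowest to the highest mean level of the 10 genes. Acta2 over Tagln stays between 0.743 and 1.48, whereas Dcn over Pdgfrb runs from 0.150 in WT_213 to 1.81 in WT_116.

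The comparison of the groups asks whether these genes differed between cultures with and without Med23. The mean log2(FPKM + 1) was higher in Med23 CKO for all 10 genes, but Med23 CKO and control values overlapped for each of them, and 0 of the 9 tested members passed at an unadjusted p under 0.05 in limma. Over all 14151 genes tested, 0.0% passed at an adjusted p under 0.05, 0.502% passed as higher and 0.996% as lower without adjustment (p under 0.05), and the Med23 CKO mean was the higher one for 43.8%. Complete separation, with the 3 Med23 CKO cultures above the 4 controls, was seen for 0 of the 9 members against 0.784% of the genes tested, and with them below for 0 of the 9 against 1.53%. The members' log2 fold changes ran from 0.24 (Tagln and Acta2) to 0.92 (Myh11), with a median of 0.58 beside -0.03 over all genes tested. They are differences in log2(FPKM + 1), which understate the change of low genes such as Lum and give a single high library less weight than a ratio of mean FPKM does. On the latter scale, added after the data were seen, the log2 ratio of the group means ran from 0.82 (Rgs5) to 2.21 (Lum) over the 10 genes. The adjusted p from limma was 0.9999 for each of the 9.

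The standard error exceeded the difference for 7 of the 9 genes. Acta2 averaged 29.2 ± 20.1 FPKM (SD, n = 4) over the controls against 69.9 ± 94.8 FPKM (SD, n = 3) over the Med23 CKO cultures, and the log2 ratio of these means was 1.26. Its difference in mean log2(FPKM + 1), given here as the log2 fold change, was 0.24 with a standard error of 1.27 (exact permutation test over the 35 assignments of the libraries to groups of 4 and 3, two-sided, p = 0.971). Pdgfrb, the receptor, had 3.97 ± 3.44 FPKM (SD, n = 4) and 10.5 ± 12.9 FPKM (SD, n = 3), with a log2 ratio of means of 1.41 and a log2 fold change of 0.71 with a standard error of 0.88 (exact permutation p = 0.571). Dcn had a log2 fold change of 0.59 with a standard error of 0.99 (exact permutation p = 0.714). Of the 9 genes, Myh11 had the largest difference and Foxc1 the smallest standard error. The log2 fold change of Myh11 was 0.92 with a standard error of 0.77 (exact permutation p = 0.4), and that of Foxc1 was 0.67 with a standard error of 0.49 (exact permutation p = 0.286). The smallest p this exact permutation test allows is 0.0286. The SD of log2(FPKM + 1) was wider among Med23 CKO than among control cultures for 9 of the 9 tested members, with medians of 1.80 and 0.92, beside 0.43 and 0.31 over all genes tested, which include genes of other levels.

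The direction depended on KO_214. Without it, the median log2 fold change of the 9 members was -0.25 and 2 of the 9 (Foxc1 and Myh11) had a higher mean in Med23 CKO, beside 39.6% of all genes tested. Of the members 0 then passed at an unadjusted p under 0.05 in limma, where 0.551% of all genes passed as higher and 1.45% as lower. The log2 fold change without KO_214 was -1.11 for Acta2 (standard error 1.07), -1.19 for Tagln (standard error 0.85) and -0.25 for Pdgfrb (standard error 0.71). Without KO_117, the low Med23 CKO culture, the median was 1.45, and 1 of the 9, Myh11, passed at an unadjusted p under 0.05 (log2 fold change 1.71, standard error 0.63), with an adjusted p of 0.596 from limma, where 2.5% of all genes passed as higher and 2.9% as lower. Without WT_220, the low control, Acta2 and Tagln had log2 fold changes of -0.40 and -0.32.

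**Figure D3:**
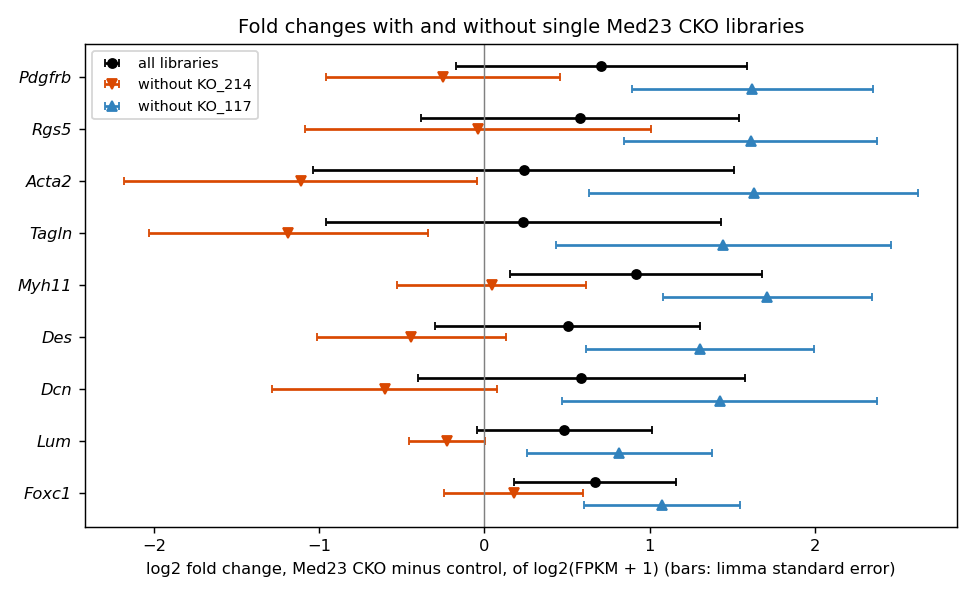
Log2 fold change of each of the 9 tested genes, Med23 CKO minus control, with limma standard errors as bars, for all libraries, without KO_214 and without KO_117. The median moves from 0.58 to -0.25 without KO_214 and to 1.45 without KO_117.

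Other genes listed for these cell types, 50 in 3 lists, were read from the same fit. Some of them, such as Cspg4 and Tpm1, are made by other cells too, so the lists are not specific to mural cells and fibroblasts. Of the 41 that could be tested, 34 had a higher and 7 a lower mean in Med23 CKO, beside 43.8% of all genes tested with a higher mean. Their median log2 fold change was 0.45, beside -0.03 over all genes tested. At an unadjusted p under 0.05 in limma, 0 were higher and 1 was lower, beside 0.502% and 0.996% of all genes, and 0 passed after adjustment. KO_214 was the highest library for 30 of the 41, beside 25.4% of all genes tested. Without KO_214 the median was -0.14 and 8 of the 41 were higher, beside 39.6% of all genes tested. Without KO_117 the median was 0.87 and 9 passed at an unadjusted p under 0.05, 8 as higher and 1 (Fbln2) as lower, beside 2.5% and 2.9% of all genes. The gene that was lower, Fbln2, encodes the matrix glycoprotein fibulin 2 and had 27.9, 8.75, 20.6 and 112 FPKM in the control cultures, against 5.42, 7.58 and 3.12 FPKM in the Med23 CKO cultures. The groups of Fbln2 did not overlap (log2 fold change -2.24, standard error 0.76, exact permutation p = 0.0571, adjusted p = 0.9999 from limma). Fbln2 was highest in WT_220, where 5 of the 10 genes were at their lowest.

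In the list of 15 other pericyte genes, 14 were tested, 12 had a higher and 2 a lower mean in Med23 CKO (43.8% of all genes were higher), 0 passed, and the median log2 fold change was 0.53. Mcam, an adhesion molecule of vessel walls, had 25.4, 59.0, 45.3 and 26.3 FPKM in the control cultures, against 5.56, 91.4 and 34.7 FPKM in the Med23 CKO cultures. Cspg4, the NG2 proteoglycan that both pericytes and oligodendrocyte precursors carry, had 43.2, 6.43, 12.6 and 51.0 FPKM in the control cultures, against 47.2, 12.9 and 8.19 FPKM in the Med23 CKO cultures. Its high libraries were WT_215, WT_220 and KO_117, and its ratio to Pdgfrb ran from 0.513 in KO_214 to 49.7 in KO_117, so its order was not that of the 10 genes. Vtn, the adhesion protein vitronectin, was highest in KO_218 (18.6 FPKM), and Notch3, a Notch receptor of mural cells, had between 4.11 FPKM in KO_117 and 14.7 FPKM in KO_214 (log2 fold changes 0.06 and 0.01).

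Among 15 other smooth muscle genes, 13 were tested, 9 had a higher and 4 a lower mean in Med23 CKO (43.8% of all genes were higher), 0 passed, and the median log2 fold change was 0.29. Tpm1 (tropomyosin 1) and Cald1 (caldesmon), which bind actin filaments in many cell types, were abundant in every library, between 105 and 183 FPKM and between 54.7 and 110 FPKM. Their ranges were narrower than that of Acta2, with log2 fold changes of -0.24 and 0.18. Ppp1r14a, an inhibitor of myosin phosphatase, was highest in control WT_116 (108 FPKM) and lowest in KO_117 (1.73 FPKM). Its libraries ran in the same order as those of Mbp, a gene of the oligodendrocyte list. Pcp4l1 ranged from 9.005 FPKM in WT_220 to 48.4 FPKM in KO_214. The list of 20 other fibroblast genes had 14 tested, 13 with a higher and 1 with a lower mean, and a median log2 fold change of 0.50. In it, the proteoglycan Bgn (biglycan) had 27.8, 24.2, 49.8 and 7.79 FPKM in the control cultures, against 8.29, 227 and 47.6 FPKM in the Med23 CKO cultures, with the same highest library as Acta2 and the same 2 lowest. Igfbp2, an IGF-binding protein, was between 317 and 996 FPKM in all libraries and highest in KO_117, and Fbln1 (fibulin 1) was highest in KO_117 too (33.2 FPKM).

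Of the PDGF ligands, Pdgfb, which recruits pericytes, had 1.25, 1.93, 2.93 and 0.546 FPKM in the control cultures, against 0.630, 10.9 and 1.18 FPKM in the Med23 CKO cultures, which is 0.47 as a log2 fold change (standard error 0.69). Pdgfa was the most abundant, between 16.0 FPKM in WT_220 and 72.1 FPKM in KO_214 (log2 fold change 0.17), while Pdgfd (0.24) ranged from 0.0483 to 4.19 FPKM and Pdgfc (-0.05) from 1.68 to 3.70 FPKM. For 3 of the 4 ligands, beside 43.8% of all genes tested, the Med23 CKO mean was the higher one, and 0 of the 4 passed at an unadjusted p under 0.05. Without KO_214 this held for 0 of the 4, and without WT_220 for 1. Srf, which encodes the factor that binds CArG boxes, had 12.2, 7.25, 7.12 and 15.8 FPKM in the control cultures, against 13.9, 9.31 and 6.21 FPKM in the Med23 CKO cultures, so it was not highest where Acta2 was. The muscle coactivator Myocd was lowest in KO_117 (0.00855 FPKM) and highest in KO_214 (0.385 FPKM), as was Acta2. Its levels lay under the minimum of 0.5 FPKM, so it was not tested. The broadly made coactivators Mkl1 and Mkl2 differed by -0.03 and -0.59 on the log2 scale (standard errors 0.38 and 0.28), and 0 of the 3 tested genes of this group passed. All 3 had a lower mean, but 2 were higher without KO_218 and 2 without WT_220. Without KO_214, 1 passed at an unadjusted p under 0.05, beside 0.551% of all genes as higher and 1.45% as lower.

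Markers of other cell types also varied across these libraries. All 9 tested of 10 endothelial genes had a higher mean in Med23 CKO, with 0 past the test and 8 highest in KO_214, and their summed level was 12.4 to 83.3 FPKM in control and 14.7 (KO_117), 121 (KO_214) and 44.0 FPKM (KO_218) in Med23 CKO. Cdh5, the adhesion protein of endothelial junctions, had 1.63, 5.66, 7.09 and 0.921 FPKM in the control cultures, against 0.703, 27.6 and 5.38 FPKM in the Med23 CKO cultures. Cldn5, of the tight junction, and Egfl7, an endothelial secreted factor, were highest in KO_214 too (27.1 and 16.2 FPKM). Without KO_214 the median log2 fold change of the endothelial genes turned from 0.46 to -0.12 with 2 of the 9 higher, and without KO_117 it was 1.16 and 1 passed at an unadjusted p under 0.05. Over all genes tested without KO_117, 2.5% passed as higher and 2.9% as lower. Microglial genes, 9 of 10 tested and all 9 higher in the mean with 0 past the test, summed to 27.3 to 130 FPKM in control and to 28.9, 401 and 104 FPKM in KO_117, KO_214 and KO_218. Among them, the complement genes C1qa and C1qb were at 50.1 and 34.2 FPKM in KO_214. The median of the microglial genes turned from 0.74 to -0.11 without KO_214, with 2 of the 9 higher, and was 1.58 without KO_117, where 2 passed at an unadjusted p under 0.05. Among 10 genes of neural stem cells, 1 had a higher and 9 a lower mean in Med23 CKO, and their sum was 2094 FPKM in KO_214 and 2185 FPKM in KO_218, against 3874 FPKM in KO_117 and between 1904 and 3892 FPKM in control. Their median was -0.30 with 0 past the test. Without KO_117 it was -0.63, with 1 of the 10 higher, and 3 passed at an unadjusted p under 0.05, beside the shares of all genes given above. The gene with the higher mean, Gfap, did not follow the sum of this list. It was highest in KO_214 (321 FPKM), next in WT_213 (138 FPKM) and lowest in WT_220 (17.8 FPKM) and KO_117 (19.4 FPKM). Its highest and lowest libraries were thus among those of the 10 genes. The part of these cell types in the levels of the 10 genes was not tested.

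The stem cell label was read against the same lists. Vim, Fabp7 and Slc1a3, genes of radial glia-like cells, had between 708 and 1694, between 203 and 1557 and between 89.0 and 214.9 FPKM. In KO_214, where Fabp7 was at its lowest, Tagln (193 FPKM) came close to it. The 10 oligodendrocyte genes, among them Mbp and Olig1, all had a lower mean in Med23 CKO, with 0 past the test, 0 highest in KO_214 and 8 lowest in KO_117. Without KO_117 their median turned from -0.70 to 0.58, 8 of the 10 were higher and 2 passed at an unadjusted p under 0.05, beside 2.5% of all genes as higher and 2.9% as lower. The list did not share a single order of libraries. Mbp had 1515 FPKM in KO_214, below only WT_116 (2234 FPKM), and was lowest in KO_117 (66.5 FPKM). Olig1 was lowest in KO_214 (214.5 FPKM) and had 1586 FPKM in KO_117. Averaged over the 10 genes, log2(FPKM + 1) reached 6.99 in KO_214, below only WT_116 (7.56). Neuronal genes, among them Snap25 and Tubb3, summed to between 47.0 and 101 FPKM in all libraries, with 3 higher and 7 lower in the mean. Of these, Gad1, an enzyme of GABA synthesis, passed as lower at an unadjusted p under 0.05 (log2 fold change -1.32, standard error 0.27, exact permutation p = 0.0286, adjusted p = 0.9999 from limma). Ependymal and choroid plexus genes, with 7 of 10 tested, 2 higher and 5 lower, summed to 656 FPKM in WT_215, of which Ttr made up 630 FPKM, and to between 11.8 and 80.3 FPKM elsewhere. Their median turned from -0.33 to 0.02 without KO_117, with 4 of the 7 higher. Foxj1, of ciliated cells, ranged from 2.08 FPKM in KO_117 to 13.7 FPKM in KO_214.

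**Figure D4:**
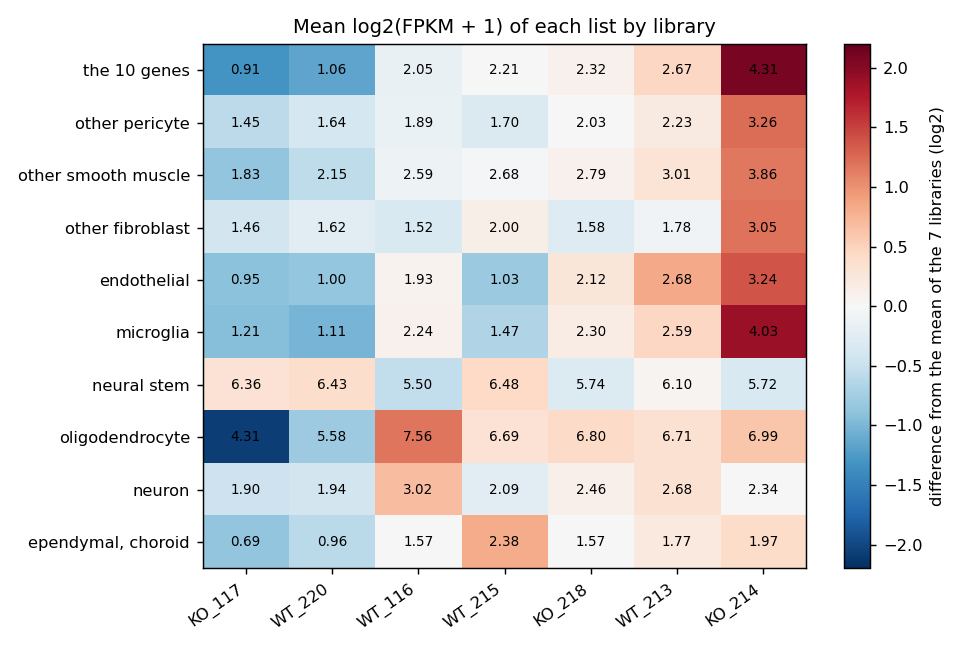
Mean log2(FPKM + 1) of the 10 genes and of other gene lists in each of the 7 libraries, with the mean printed in each cell, colours for the difference from the mean of the libraries, and libraries ordered by the 10 genes. The 10 genes run from 0.91 in KO_117 to 4.31 in KO_214, and the endothelial and microglial lists are also highest in KO_214.

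Genes most like each role in their pattern were named by the Pearson correlation of their log2(FPKM + 1) with the mean of the tested members of that role over the 7 libraries. For Pdgfrb and Rgs5 they were 4930523C07Rik (r = 0.995), Rarres2 (r = 0.991), which is also on the ependymal and choroid list, and Bmp3 (r = 0.991). For the 4 contractile genes they were Itga3 (r = 0.992), Bcl2a1d (r = 0.991) and Ctgf (r = 0.991), and for Dcn, Lum and Foxc1 they were Slc11a2 (r = 0.999), Tspo (r = 0.996) and Ptges (r = 0.994). Spearman's rho was 0.964 or 1 for all 9, and over the 6 libraries without KO_214 Pearson's r was between 0.966 and 0.996. These genes were picked for their correlation among the 14151 and come from the same libraries as the members, so no test is given. Ctgf, a secreted matrix-associated protein, had 29.4, 8.60, 32.6 and 4.71 FPKM in the control cultures, against 3.04, 193 and 19.8 FPKM in the Med23 CKO cultures, close to the values of Tagln in KO_214 and KO_218.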

How the data were processed

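Processed values of 7 libraries (4 control and 3 Med23 CKO) were used. The authors removed adapters with cutadapt, mapped reads with Tophat (build mm10) and obtained FPKM from Cuffdiff, and the gene annotation is not given in the sources used here. The deposited table holds FPKM per library, 2 columns of group values, and, for their own comparison of the groups, a log2 fold change, a test score (the Cuffdiff statistic), its p-value and the adjusted q-value. The authors' comparison columns were not used. Low FPKM values showed no steps of whole fragments (among genes under 0.3 FPKM, the fullest 0.05-wide bin of log2 ratios held at most 4.56% over 21 pairs of libraries), so depth is unknown.

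Genes with a mean of at least 0.5 FPKM were tested on log2(FPKM + 1) with limma 3.58.1 in R 4.3.3 (trend, two-sided, Benjamini-Hochberg over 14151 genes), after the script was tested on simulated data. Exact permutation over libraries used Python 3.11.15. Each library comes from another mouse. The members and lists were chosen with earlier results of these data known. Named genes are the 10 members, Med23, the 4 most abundant genes and those with an unadjusted p under 0.05 of each related list, all genes of the PDGF and SRF lists, the 3 most abundant of each marker list, and the 3 most correlated genes per role, except that some genes under this rule are not reported here. Alternatives were the pseudocount, the filter, normalization, variance model, array weights, a covariate and each library left out.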

Additional observations from a re-analysis of the deposited data

Results flagged for a closer look

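Control values of 71 items (genes named in the text and summed levels of lists) were checked for a library that stands far from the other 3, by the gap to its neighbour over the whole range. This check picks about 1 in 20 groups by chance, and 3 of the 71 exceeded the critical value (Dixon, 95%). The 10 mural and fibroblast genes were not among them. Ttr, a choroid plexus gene, had a ratio of 0.927, with 630 FPKM in WT_215 against 57.3, 31.1 and 11.9 FPKM in WT_116, WT_213 and WT_220. The sum of the ependymal and choroid plexus list, which holds Ttr, had a ratio of 0.913 for the same library. The sum of the other pericyte genes had a ratio of 0.848, since WT_215 had 93.1 FPKM and the other control libraries between 103 and 105 FPKM. The check was run on the 4 control libraries and not on the 3 Med23 CKO libraries, so the distance of KO_214 from the others was not assessed by it.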

How the results depend on the processing

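When single libraries were left out, the number of members at an unadjusted p under 0.05 in limma was between 0 and 1, that of the 50 related genes between 1 and 9, and that of all genes at an adjusted p under 0.05 between 0 and 1. The most were reached without KO_117 for the members and the related genes, and without KO_214 or KO_218 for all genes. The related genes that passed numbered 2 with no filter on low values, 2 with array weights and 1 in the other settings that kept all libraries. With array weights, the sign turned for Acta2 (log2 fold change -0.082), Lum (-0.011) and Tagln (-0.36). The weights were 0.30 for KO_117, 0.44 for KO_214 and 3.01 for KO_218, so KO_218 counted most in the Med23 CKO mean. Control weights lay between 0.62 in WT_220 and 2.40 in WT_213. What made the libraries differ in weight was not tested. With libraries left out, the log2 fold change of Acta2 lay between -1.11 and 1.63, of Tagln between -1.19 and 1.45, of Dcn between -0.60 and 1.42, of Des between -0.44 and 1.31, of Pdgfrb between -0.25 and 1.62, of Rgs5 between -0.039 and 1.61 and of Lum between -0.23 and 0.86, the lowest value being without KO_214 in each. Without WT_220, Acta2 and Tagln were at -0.40 and -0.32. Foxc1 and Myh11 kept their sign in all settings run. The median over the members lay between -0.25 and 1.45 with libraries left out, at 0.12 with array weights and between 0.54 and 0.68 in the other planned settings. As the log2 ratio of group mean FPKM, a scale chosen after the data were seen, it was 1.36. Depth is unknown, so the counting error of low levels such as those of Lum and Abcc9 cannot be given.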

Other observations

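Some collagens and the mural gene Kcnj8, chosen here after their values were seen, had the same high library, so they add no support. KO_214 was the highest library for 9 of the 14 tested other fibroblast genes and 11 of the 14 tested other pericyte genes, beside 25.4% of all genes tested. Others of these lists had another highest library, such as Fmod in WT_215 and Fbln1 in KO_117. Col3a1, a fibrillar collagen of fibroblasts, had 38.4 FPKM in KO_214 and between 0.307 and 1.66 FPKM in the other 6 libraries. Col1a1 had 11.2 FPKM in KO_214 and at most 0.640 FPKM elsewhere, and Col6a3 had 25.2 FPKM in KO_214 and at most 2.36 FPKM elsewhere. Col1a2 had 46.6 FPKM in KO_214, and its next library was WT_215 with 9.89 FPKM, the control culture that was also next for Dcn. Kcnj8, the pore subunit that pairs with the Abcc9 product, had 5.70 FPKM in KO_214, 1.29 FPKM in KO_218 and between 0.119 and 0.695 FPKM in the other libraries.

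Pdgfra, which marks fibroblasts and oligodendrocyte precursors, had another order than Dcn. It had 8.94, 0.206, 0.506 and 3.68 FPKM in the control cultures (in the order WT_215, WT_116, WT_213, WT_220), against 2.35, 5.42 and 0.413 FPKM in KO_117, KO_214 and KO_218. Its 4 highest libraries were WT_215, KO_214, WT_220 and KO_117, which are KO_214, the highest for Dcn, and the 3 highest for Cspg4.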
